A study of Mus musculus with 8 samples.

Results

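The kinases and adaptors that act directly below the B cell receptor (BCR) were followed in bulk RNA-seq of splenic B cells from transgenic mice at early removal criteria (ERC), the clinical endpoint at which diseased mice are euthanized. The group comprised the genes Lyn, Blk, Fyn, Syk, Zap70, Btk, Blnk, Pik3ap1, Plcg2 and Prkcb, chosen by symbol and function and not by their values. All 10 were found among the 24902 gene symbols of the count matrix, had a count in each of 8 mice and were among the 13173 genes tested. The 8 mice were 4 Eµ-PRMT5 mice (transgene Eµ-hPRMT5), 3 Eµ-PRMT5/TCL1 mice (Eµ-hPRMT5/hTCL1) and 1 Eµ-TCL1 mouse (Eµ-hTCL1), all labelled as strain C57BL/6N, so every mouse carried at least 1 human transgene and WT mice were not analysed here. Human PRMT5, an arginine methyltransferase, was driven by an immunoglobulin heavy chain V promoter and the Eµ enhancer, which direct expression to B cells, and hTCL1 is the TCL1 oncogene of an established mouse model of chronic lymphocytic leukemia (CLL). Several founders were made for the PRMT5 transgene, the labels do not give the age of the mice used here, and the B cells were purified magnetically with a pan-B kit, so each sample is a mixture of all splenic cells that passed the purification.

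When antigen engages the BCR, the Src family kinases Lyn, Blk and Fyn phosphorylate the tails of Cd79a and Cd79b, and the tandem-SH2 kinase Syk docks there and becomes active. Syk phosphorylates the scaffold Blnk, on which the Tec family kinase Btk and the phospholipase Plcg2 meet, and Plcg2 releases the second messengers that open calcium channels and activate protein kinase C beta, the product of Prkcb. Pik3ap1 (BCAP) links the receptor to phosphoinositide 3-kinase, and Zap70 is the Syk relative used by the T cell receptor, known in human CLL as a marker whose presence in the leukemic B cells goes with an aggressive course.

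Total counts on genes ranged from 3356297 in the Eµ-TCL1 mouse to 10252426 in Eµ-PRMT5 mouse 4. Levels are given as CPM, counts relative to library size after scaling by the trimmed mean of M values (TMM). Fewer cells of a type and less RNA per cell cannot be told apart in such bulk samples. B cell identity varied between the samples: the summed CPM of 8 B cell markers was between 1896 and 6870 in Eµ-PRMT5 mice, between 3599 and 8744 in Eµ-PRMT5/TCL1 mice and 5186 in the Eµ-TCL1 mouse, and 5 of the 8 markers, among them Cd79a, Cd79b, Ms4a1 and Ebf1, were lowest in Eµ-PRMT5 mouse 4. The summed CPM of 13 neutrophil markers ranged from 434 to 5543 in Eµ-PRMT5 mice and from 675 to 9317 in Eµ-PRMT5/TCL1 mice, with 631 in the Eµ-TCL1 mouse, and that of 7 tested macrophage and monocyte markers from 1137 to 3355 and from 998 to 7360, with 1092 in the Eµ-TCL1 mouse. Lyz2 was 708 CPM or more in every mouse and held a large part of each macrophage and monocyte sum. In Eµ-PRMT5 mouse 1, 16379 symbols had a value, against 20411 to 21475 in the other mice. Nothing in the labels says that mice shared a litter or a batch.

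Promoter sequences of RefSeq (GRCm38.p6), from 250 bases before to 50 bases after each transcription start, were held for 8 of the 10 genes in 11 windows, and Lyn and Blk had no entry. Stretches of the windows of Zap70, the member with the widest range between mice, and of Prkcb and Blnk, the members with the octamer ATGCAAAT known from immunoglobulin promoters, are shown 5′ to 3′ on the strand of the gene. Capitals mark motif letters: in Zap70 the E-box CAGGTG at 2 positions and the ETS core GAGGAA read on the other strand, in Prkcb the octamer as written, and in Blnk the octamer read on the other strand.
Zap70 (chr1:36761578-36761677, plus strand): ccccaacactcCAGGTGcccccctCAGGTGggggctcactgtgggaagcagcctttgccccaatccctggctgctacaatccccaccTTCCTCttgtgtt
Prkcb (chr7:122289019-122289098, plus strand): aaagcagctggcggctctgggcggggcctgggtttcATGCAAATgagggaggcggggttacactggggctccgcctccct
Blnk (chr19:40994308-40994387, minus strand): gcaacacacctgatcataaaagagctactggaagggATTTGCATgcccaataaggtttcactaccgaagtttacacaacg

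The octamer began 70 bases before the Prkcb start and 130 bases before the Blnk start, and 1.74% of all 32851 promoter windows held it on either strand. Its 2 carriers did not share a pattern of expression closely, with a correlation of their log2 levels of 0.33 over the 8 mice. The other motifs searched on both strands were more frequent in the genome. GAGGAA was found in windows of Syk, Btk, Zap70 and Pik3ap1 and in 28.3% of all windows, and CAGGTG in Syk, Zap70, Blnk, Plcg2 and Pik3ap1 and in 20.2%. CAGCTG was found in Syk, Pik3ap1 and Prkcb and in 16.3% of all windows, the GC box GGGCGG in Fyn, Plcg2 and Prkcb and in 35.7%, CCCNNGGG in Fyn and Zap70 and in 13.7%, and TGTGGT in Zap70 and in 16.8%. TGACTCA and TATAAA, present in 5.2% and 13.6% of all windows, were in none of the 11. These matches describe letters only.

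Levels between genes were compared per kilobase of exon (GENCODE vM21), as the median CPM per kilobase over the 8 mice. Blk was the most abundant transcript at 125 CPM per kilobase, a level at percentile 97.4 of the tested genes. Plcg2 followed at 95.8, Blnk at 78.2, Syk at 77.8, Lyn at 77.6, Btk at 49.2, Prkcb at 25 and Pik3ap1 at 17.1 CPM per kilobase. The lowest were Fyn at 7.47 CPM per kilobase (percentile 52.7) and Zap70 at 2.22 CPM per kilobase (percentile 24.8), the members that T cells also use. The ranges of all neighbours in this order overlapped, and the order of Lyn above Btk was the single step that held within each of the 8 mice.

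**Figure D1:**
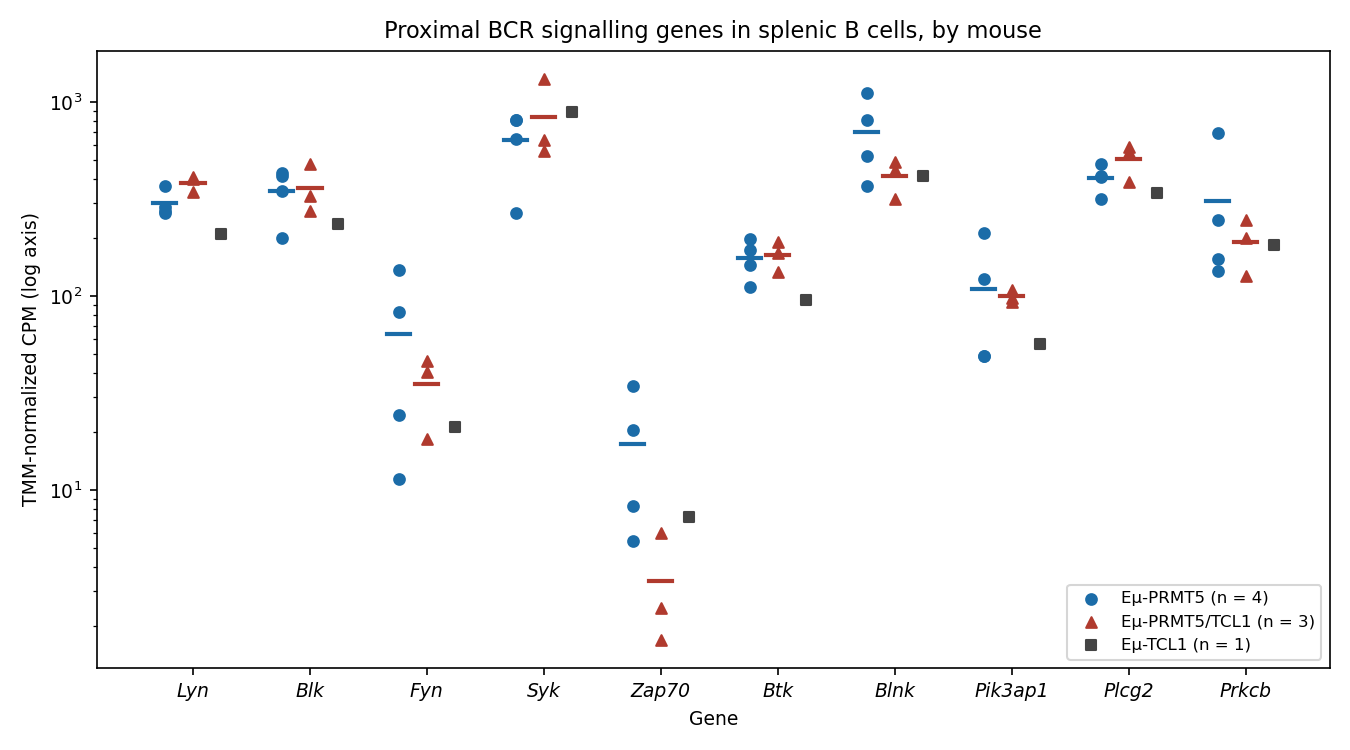
TMM-normalized CPM (log axis) of the 10 genes in each mouse, with Eµ-PRMT5 mice as circles (n = 4), Eµ-PRMT5/TCL1 mice as triangles (n = 3) and the Eµ-TCL1 mouse as a square, and bars at the means of the groups of 4 and 3. Lyn, Btk and Plcg2 spread least, Fyn and Zap70 spread over more than an order of magnitude, and the groups of 4 and 3 overlap for every gene.

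The question put to the groups was whether adding TCL1 to PRMT5 came with other levels of these genes. With edgeR's quasi-likelihood test, 0 of the 10 genes passed an adjusted p under 0.05 with a fold change over 4 between both replicated groups in either direction, where 0.0% of all tested genes did. DESeq2 also called 0 of the 10. At an unadjusted p under 0.05 edgeR gave 1 of the 10 genes, Zap70, as lower in Eµ-PRMT5/TCL1 mice, against 1.21% of all tested genes, and 0 as higher, against 0.957%. No member had groups that did not overlap, which 1.35% of all tested genes showed with Eµ-PRMT5/TCL1 mice higher and 1.59% with them lower. The log2 fold change was above 0 for 5 members and below 0 for 5, with a median of -0.04, beside a median of -0.09 over all tested genes, of which 40.6% were above 0 and 59.4% below.

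**Figure D2:**
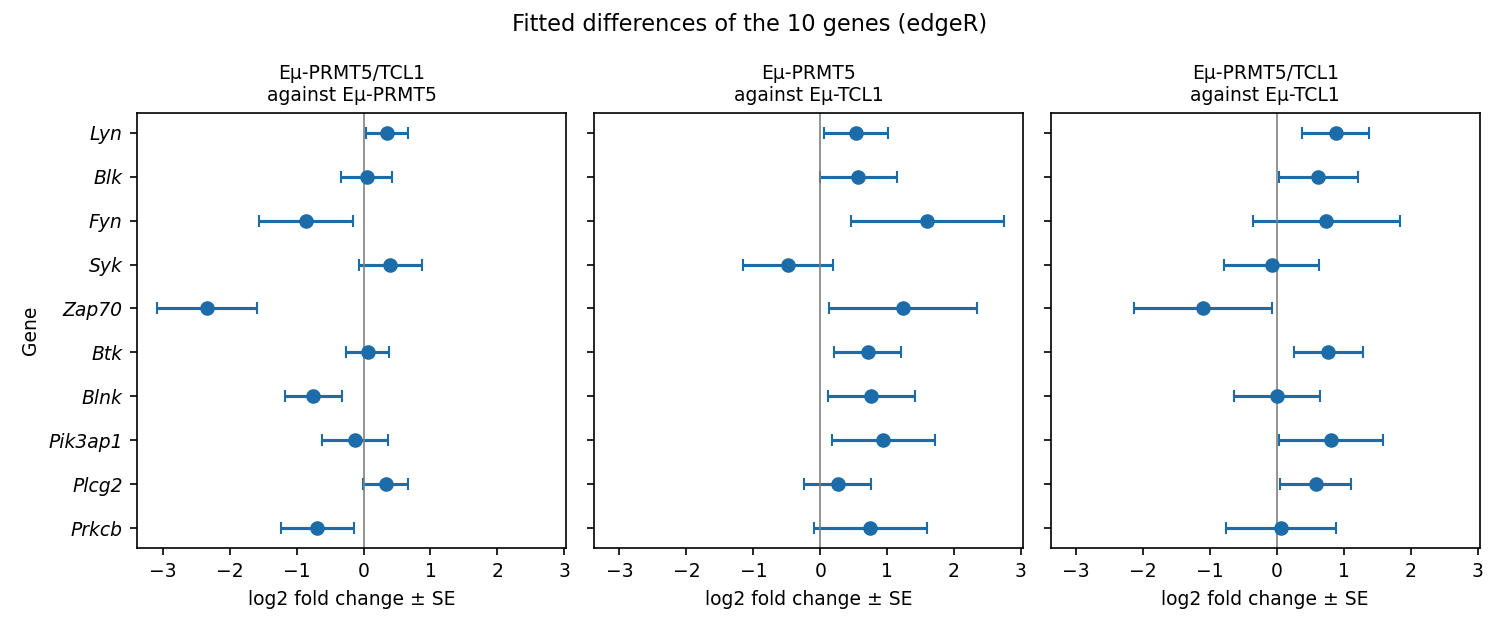
Fitted log2 fold changes (x axis, points) of the 10 genes in the 3 comparisons, from 1 edgeR fit over all 8 mice. Bars are standard errors derived from the test statistic. Zap70 lies farthest from 0 in the left panel at -2.34, and 9 of 10 points lie above 0 in the middle panel, whose comparison rests on 1 Eµ-TCL1 mouse.

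Of the Src family kinases, Lyn (chr4:3678115-3813122 in GRCm38, plus strand), the main initiating kinase of B cells and also a source of inhibitory signals, was 371, 288, 275 and 267 CPM in Eµ-PRMT5 mice 1 to 4, 343, 399 and 410 CPM in Eµ-PRMT5/TCL1 mice 1 to 3 and 208 CPM in the Eµ-TCL1 mouse. Values of each gene are given in this order of mice. Eµ-PRMT5 mouse 1 lay among the Eµ-PRMT5/TCL1 mice and the other 3 Eµ-PRMT5 mice lay below them. The means were 300 ± 47.7 CPM (SD, n = 4) and 384 ± 35.4 CPM (SD, n = 3), a log2 fold change of 0.35 (SE 0.31, edgeR adjusted p = 1.0). With upper-quartile scaling or with library size only, all 3 Eµ-PRMT5/TCL1 mice lay above all 4 Eµ-PRMT5 mice. Within its span, 248 bases of Lyn exons overlap exons of Gm26857 on the other strand, and no source used here says whether the counting was strand-aware.

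Blk (chr14:63372836-63417037, minus strand), a Src family kinase largely restricted to B cells, was 417, 349, 430 and 200 CPM across the Eµ-PRMT5 mice, 275, 327 and 482 CPM across the Eµ-PRMT5/TCL1 mice, with 235 CPM in the Eµ-TCL1 mouse. The lowest value was that of Eµ-PRMT5 mouse 4, and the ranges of the groups overlapped widely. The means of 349 ± 106 CPM (SD, n = 4) and 361 ± 107 CPM (SD, n = 3) differed by a log2 fold change of 0.05 (SE 0.38, edgeR adjusted p = 1.0).

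Fyn (chr10:39368855-39565381, plus strand), shared by T cells, NK cells and B cells, was 82.6, 137, 24.4 and 11.4 CPM across the Eµ-PRMT5 mice, 40.8, 46.5 and 18.3 CPM across the Eµ-PRMT5/TCL1 mice, with 21.1 CPM in the Eµ-TCL1 mouse. Eµ-PRMT5 mice 1 and 2 were the highest of the 8 and mouse 4 the lowest, so that the spread within the Eµ-PRMT5 group was wider than the difference between groups. The means were 63.8 ± 57.6 CPM (SD, n = 4) and 35.2 ± 14.9 CPM (SD, n = 3), with a log2 fold change of -0.86 (SE 0.70, edgeR adjusted p = 1.0), which was -0.16 without Eµ-PRMT5 mouse 2.

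Syk (chr13:52583173-52648792, plus strand), the kinase that turns receptor phosphorylation into a signal, was 813, 648, 809 and 268 CPM across the Eµ-PRMT5 mice, 639, 562 and 1318 CPM across the Eµ-PRMT5/TCL1 mice, with 885 CPM in the Eµ-TCL1 mouse. The lowest library was Eµ-PRMT5 mouse 4 and the highest Eµ-PRMT5/TCL1 mouse 3, a 4.92-fold range. The group means of 634 ± 256 CPM (SD, n = 4) and 840 ± 416 CPM (SD, n = 3) differed by less than their spread (log2 fold change 0.40, SE 0.47, edgeR adjusted p = 1.0), and without Eµ-PRMT5/TCL1 mouse 3 the log2 fold change was -0.08.

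Zap70 (chr1:36761798-36782818, plus strand) was 5.48, 8.23, 20.5 and 34.5 CPM across the Eµ-PRMT5 mice, from 27, 52, 90 and 299 counts. It was 2.46, 6.01 and 1.69 CPM in the Eµ-PRMT5/TCL1 mice, from 15, 42 and 11 counts, and 7.30 CPM in the Eµ-TCL1 mouse, from 27 counts. Eµ-PRMT5 mice 3 and 4 were the highest, Eµ-PRMT5/TCL1 mice 1 and 3 the lowest, and the groups overlapped by 1 mouse on each side, since Eµ-PRMT5/TCL1 mouse 2 lay above Eµ-PRMT5 mouse 1. The means were 17.2 ± 13.3 CPM (SD, n = 4) and 3.38 ± 2.30 CPM (SD, n = 3). The fitted level was 5.05-fold lower in Eµ-PRMT5/TCL1 mice, a log2 fold change of -2.34 (SE 0.75, edgeR unadjusted p = 0.00892, adjusted p = 1.0). By p-value Zap70 was number 23 of the 13173 tested genes. Leaving out each mouse in turn gave log2 fold changes between -3.04 and -1.74, the smallest of them without Eµ-PRMT5 mouse 4, when the Eµ-PRMT5 mean was 11.4 ± 8.01 CPM (SD, n = 3).

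T cell RNA was set beside Zap70 and Fyn, because T cells use both kinases. Of 14 T cell markers, 8 were among the tested genes, and their summed CPM was 236 to 754 in Eµ-PRMT5 mice, 502 to 596 in Eµ-PRMT5/TCL1 mice and 392 in the Eµ-TCL1 mouse. Cd2 was 113 CPM or more in every mouse and held a large part of each sum. The median log2 fold change of these 8 markers, Eµ-PRMT5/TCL1 over Eµ-PRMT5, was -1.32, and 3 of the 8 (Cd3d, Cd3e and Tcf7) were lower at an unadjusted p under 0.05 in edgeR, against 1.21% of all tested genes. Cd2 went the other way, higher in the Eµ-PRMT5/TCL1 group (469 ± 51.4 CPM, SD, n = 3) than in the Eµ-PRMT5 group (279 ± 115 CPM, SD, n = 4) with no overlap (log2 fold change 0.75, SE 0.41, edgeR adjusted p = 1.0). None of the 8 markers was at 0 in any mouse, but only genes with a value in every library were tested. The T cell markers not tested (Cd4, Cd8a, Bcl11b, Themis, Trat1 and Cd6) each lacked a value in some library. The T cell receptor subunit Cd3d was 13.2, 6.81, 44.7 and 2.65 CPM in Eµ-PRMT5 mice 1 to 4, 4.10, 2.43 and 2.15 CPM across the Eµ-PRMT5/TCL1 mice, with 2.43 CPM in the Eµ-TCL1 mouse. In Eµ-PRMT5 mouse 3, which had the second highest Zap70, 6 of the 8 markers reached their highest level of all mice. In Eµ-PRMT5 mouse 4, which had the highest Zap70, 4 of the 8 were at their lowest level (Cd247, Cd8b1, Cd28 and Cd2), and Cd3g alone was at its highest, at 95.1 CPM. Of 8 NK cell markers 3 were tested, and their summed CPM was 356 in Eµ-PRMT5 mouse 3, 39.2 in mouse 4 and at most 63.8 in the other mice.

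Of the kinases and adaptors that T cells use in place of the B cell members, several differed in the same way between mice 3 and 4. Prkcq, the protein kinase C of the T cell synapse, was 18.3, 14.9, 78.4 and 1.27 CPM across the Eµ-PRMT5 mice, 3.44, 2.86 and 2.77 CPM across the Eµ-PRMT5/TCL1 mice, with 5.95 CPM in the Eµ-TCL1 mouse. Lat, the T cell scaffold, was 83.2 CPM in Eµ-PRMT5 mouse 3 and 9.92 CPM in mouse 4. Lat, Prkcq and Txk were highest of all mice in mouse 3, and Plcg1, Prkcq and Txk lowest of all mice in mouse 4. The adaptor Lcp2 ran the other way, at 52.7 CPM in mouse 3 and 77.1 CPM in mouse 4, and the kinase Lck was 387 CPM in mouse 3 and 216 CPM in mouse 4, with its highest level, 667 CPM, in Eµ-PRMT5/TCL1 mouse 2. High Zap70 thus stood beside high levels of most T cell genes measured here in mouse 3, and in mouse 4 beside low levels of many of them but not of Cd3g, Lcp2 or Lck.

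**Figure D3:**
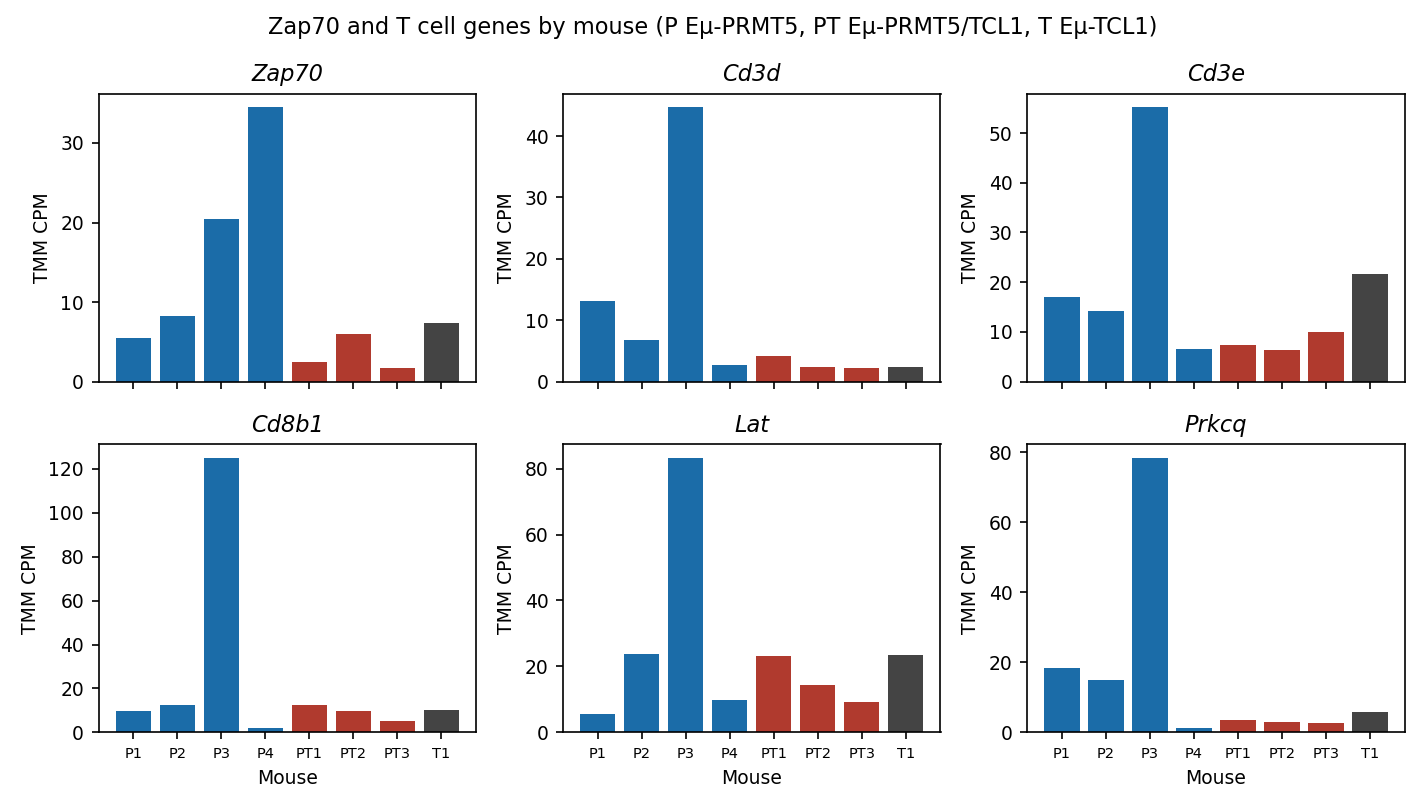
TMM-normalized CPM of Zap70 and of 5 T cell genes (y axes, each from 0) in the 8 mice (x axes, P for Eµ-PRMT5, PT for Eµ-PRMT5/TCL1, T for Eµ-TCL1). Zap70 is 20.5 CPM in P3 and 34.5 CPM in P4, while the T cell genes plotted peak in P3, with Cd3d at 44.7 CPM, and are low in P4, with Cd3d at 2.65 CPM. Genes not plotted include Cd3g and Lcp2, higher in P4 (95.1 and 77.1 CPM) than in P3 (71.1 and 52.7 CPM), and Cd2 and Lck, which peak in PT2.

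Over the 8 mice, the log2 level of Zap70 and the mean log2 level of the 8 T cell markers had a Pearson r of 0.219 (two-sided exact permutation p = 0.598, adjusted p = 0.709 over 2 relations) and a Spearman rho of 0.167 (exact permutation p = 0.703, adjusted p = 0.703). Without Eµ-PRMT5 mice 3 and 4, the 2 farthest from the median of the marker level, r was 0.708 (exact permutation p = 0.161). The relation rested on single mice: leaving out each mouse in turn gave r from -0.404, without mouse 3, to 0.86, without mouse 4. For Fyn, r was 0.163 (exact permutation p = 0.709, adjusted p = 0.709) and rho 0.381 (exact permutation p = 0.36, adjusted p = 0.703), and r was 0.475 without the same 2 mice (exact permutation p = 0.308). The part of T cells in the Zap70 difference was not tested further. The labels give no batch within which these relations could be recomputed.

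Btk (chrX:134542336-134583570, minus strand), the target of BTK inhibitors in CLL, was 196, 173, 111 and 145 CPM across the Eµ-PRMT5 mice, 133, 166 and 190 CPM across the Eµ-PRMT5/TCL1 mice, with 95.4 CPM in the Eµ-TCL1 mouse. The values of the Eµ-PRMT5/TCL1 mice lay inside the range of the Eµ-PRMT5 mice. Means of 156 ± 36.8 CPM (SD, n = 4) and 163 ± 28.3 CPM (SD, n = 3) gave a log2 fold change of 0.06 (SE 0.32, edgeR adjusted p = 1.0).

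Plcg2 (chr8:117498291-117635142, plus strand), the phospholipase downstream of Btk, was 410, 318, 414 and 478 CPM across the Eµ-PRMT5 mice, 386, 551 and 587 CPM across the Eµ-PRMT5/TCL1 mice, with 339 CPM in the Eµ-TCL1 mouse. Eµ-PRMT5/TCL1 mice 2 and 3 were above all Eµ-PRMT5 mice and mouse 1 was among them. Means of 405 ± 65.7 CPM (SD, n = 4) and 508 ± 107 CPM (SD, n = 3) gave a log2 fold change of 0.33 (SE 0.34, edgeR adjusted p = 1.0), and Plcg2 had the smallest range of the 10 genes, 1.85-fold over the 8 mice.

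Blnk (chr19:40928927-40994535, minus strand), the scaffold between Syk and Plcg2, was 808, 527, 370 and 1113 CPM across the Eµ-PRMT5 mice, 316, 447 and 490 CPM across the Eµ-PRMT5/TCL1 mice, with 417 CPM in the Eµ-TCL1 mouse. Eµ-PRMT5 mice 1, 2 and 4 were above all Eµ-PRMT5/TCL1 mice and mouse 3 was among them. The means were 705 ± 327 CPM (SD, n = 4) and 418 ± 90.4 CPM (SD, n = 3), a log2 fold change of -0.75 (SE 0.43, edgeR adjusted p = 1.0), which was -0.44 without Eµ-PRMT5 mouse 4.

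Pik3ap1 (chr19:41272377-41385102, minus strand) was 49.3, 123, 49.0 and 212 CPM across the Eµ-PRMT5 mice, 97.5, 108 and 93.3 CPM across the Eµ-PRMT5/TCL1 mice, with 56.8 CPM in the Eµ-TCL1 mouse. The Eµ-PRMT5/TCL1 mice lay close together between low and high Eµ-PRMT5 mice, with coefficients of variation of 7.50% (n = 3) and 71.5% (n = 4). The log2 fold change was -0.13 (SE 0.49, edgeR adjusted p = 1.0), and 0.43 without Eµ-PRMT5 mouse 4.

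Prkcb (chr7:122288751-122634402, plus strand), which carries the signal on to NF-kB, was 695, 134, 247 and 156 CPM across the Eµ-PRMT5 mice, 127, 199 and 247 CPM across the Eµ-PRMT5/TCL1 mice, with 183 CPM in the Eµ-TCL1 mouse. Mouse 1 of the Eµ-PRMT5 group stood alone and the other 7 mice covered 127 to 247 CPM. The means of 308 ± 263 CPM (SD, n = 4) and 191 ± 60.2 CPM (SD, n = 3) gave a log2 fold change of -0.69 (SE 0.55, edgeR adjusted p = 1.0), and 0.12 without Eµ-PRMT5 mouse 1. The related kinase Prkce was also highest in that mouse, at 153 CPM against 11.1 to 49.9 CPM in the others.

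Of the 20 highest and lowest values of the 10 genes, 11 fell on mouse 4 of the Eµ-PRMT5 group and mouse 3 of the Eµ-PRMT5/TCL1 group, and the other 9 on 5 mice. Eµ-PRMT5 mouse 4 held the highest level of 3 genes (Zap70, Blnk and Pik3ap1) and the lowest level of 3 (Syk, Blk and Fyn), and all 5 genes of the receptor complex measured here were at their lowest in it. Of these, Cd79a, the signalling chain of the receptor, was 411 CPM in mouse 4 and 924 to 2115 CPM in the other 7 mice. Low receptor genes, low Syk and low Blk thus stood beside high Blnk, high Pik3ap1 and high Zap70 in the same mouse. RNA of other cells was also high there: its summed erythroid markers (6 tested), 381 CPM, were the highest of the 8 mice, and its neutrophil (5543 CPM) and macrophage and monocyte (3355 CPM) sums were the highest of the Eµ-PRMT5 mice, while its 5 plasma cell markers summed to 595 CPM, the lowest of that group. Their part in these levels was not tested. The labels give Eµ-PRMT5 mice 3 and 4 animal numbers that the study also uses in its histology. Under these numbers it describes anaplastic large lymphocytes with histiocytes for mouse 3 and sheets of small lymphocytes for mouse 4. Whether the histology goes with these levels was not tested. Eµ-PRMT5/TCL1 mouse 3 held the highest level of 4 genes (Syk, Lyn, Blk and Plcg2), and there Cd79a and Cd79b were highest as well. Over all 45 pairs of the 10 genes, the correlation of log2 levels over the 8 mice ranged from -0.711 (Syk with Pik3ap1) to 0.804 (Btk with Lyn), with a median of 0.2 and 29 pairs above 0. These values share the libraries and their scaling and are given as a description.

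Ratios between kinases were taken within each mouse. Per kilobase of exon, Syk exceeded Zap70 by 47.4-fold, 25.2-fold, 12.6-fold and 2.48-fold in Eµ-PRMT5 mice 1 to 4, by 83.1-fold, 29.9-fold and 249-fold in Eµ-PRMT5/TCL1 mice 1 to 3 and by 38.8-fold in the Eµ-TCL1 mouse. For the test, ratios were taken on CPM with 1 CPM added to each gene and without division by length. The log2 ratio of Zap70 to Syk was -5.32 ± 1.75 (SD, n = 4) and -7.60 ± 1.31 (SD, n = 3), a difference of -2.28 in the log2 ratio (two-sided exact permutation p = 0.114, adjusted p = 0.343 over 3 ratios). This test covered 35 splits of the mice and doubled the smaller tail, so no ratio could reach a p under 0.05. The difference was -2.58 with 0.1 CPM added and -1.66 with 5 CPM added, and -1.49 without Eµ-PRMT5 mouse 4. Eµ-PRMT5 mouse 4, in which Syk was lowest and Zap70 highest, lay nearest to equal levels of both kinases.

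The balance of the Src family kinases differed less between groups. The log2 ratio of Blk to Lyn was 0.17 ± 0.44 (SD, n = 4) and -0.12 ± 0.31 (SD, n = 3), with a difference of -0.29 (exact permutation p = 0.514, adjusted p = 0.571). Per kilobase of exon, Blk exceeded Lyn in all 8 mice, from 1.13-fold in Eµ-PRMT5 mouse 4 to 2.36-fold in Eµ-PRMT5 mouse 3. The log2 ratio of Fyn to Lyn was -2.77 ± 1.47 (SD, n = 4) and -3.51 ± 0.78 (SD, n = 3), with a difference of -0.73 (exact permutation p = 0.571, adjusted p = 0.571), and this difference was -0.17 without Eµ-PRMT5 mouse 2. Lyn exceeded Fyn per kilobase in all 8 mice, from 2.26-fold in Eµ-PRMT5 mouse 2 to 25.1-fold in mouse 4.

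**Figure D4:**
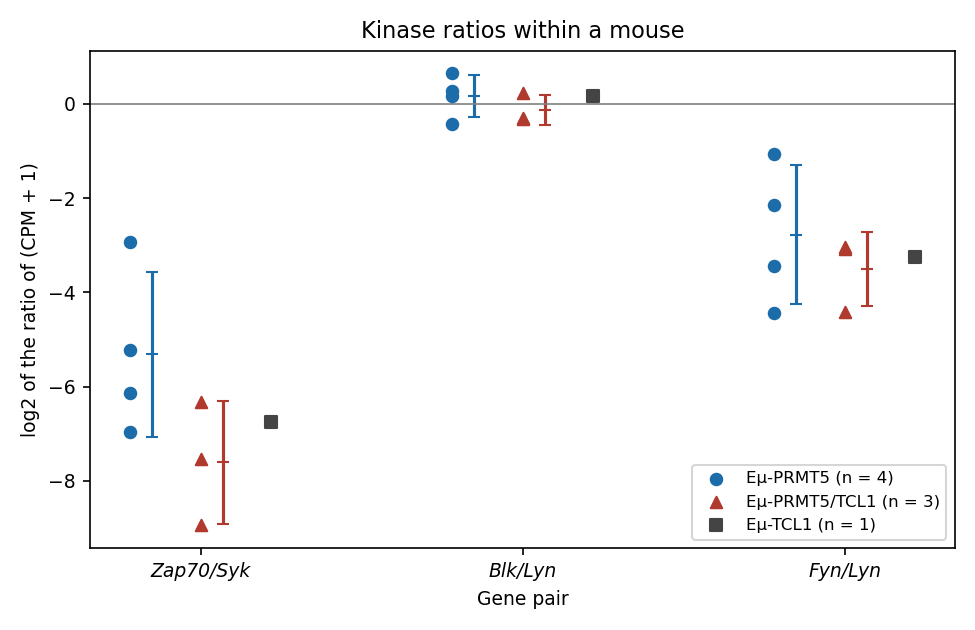
Log2 ratios of CPM (1 added to each) between pairs of kinases (x axis) in each mouse, with the mean and SD of the groups of 4 and 3 mice beside the points. The Zap70 to Syk ratio is highest in Eµ-PRMT5 mouse 4, at -2.92, and lowest in Eµ-PRMT5/TCL1 mouse 3, at -8.94.

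The other kinases of the same families were measured beside the members. Of 10, among them Fgr, Yes1, Src, Tec, Bmx, Prkca, Prkcd, Prkce and Prkch, 0 passed the adjusted threshold between the groups of 3 and 4 mice, 2 had a log2 fold change above 0 and 8 below, with a median of -0.57. Of all tested genes, 0.0% passed that threshold, 40.6% were above 0 and 59.4% below, with a median of -0.09. Tec, the founding member of the Btk family, was 82.2, 115, 136 and 68.4 CPM across the Eµ-PRMT5 mice, 62.1, 46.2 and 68.2 CPM across the Eµ-PRMT5/TCL1 mice, with 79.2 CPM in the Eµ-TCL1 mouse, so that the groups did not overlap by a margin of less than 1 CPM (log2 fold change -0.77, SE 0.35, edgeR unadjusted p = 0.0485, adjusted p = 1.0). Of all tested genes, 1.59% were lower in Eµ-PRMT5/TCL1 mice with no overlap of the groups, and 1.21% at an unadjusted p under 0.05. Among the 7 T cell counterparts, which include Lck, Lat, Lcp2, Plcg1, Prkcq and Txk, the median was -0.67, and Prkcq had the smallest p (log2 fold change -3.21, SE 1.01, edgeR unadjusted p = 0.00811, adjusted p = 1.0).

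Upstream and downstream of the members, the 5 genes of the receptor complex, among them Cd79a, Cd79b, Cr2 and Cd81, had a median log2 fold change of 0.18 for Eµ-PRMT5/TCL1 over Eµ-PRMT5, and 0 of 5 reached an unadjusted p under 0.05 in edgeR. At that p, 0.957% of all tested genes were higher and 1.21% lower. Of 29 other activators 28 were tested, 20 of them with a log2 fold change above 0 and a median of 0.17, beside 40.6% and a median of -0.09 over all tested genes. The calcium channel subunit Orai1 was 12.8, 21.5, 19.6 and 20.5 CPM across the Eµ-PRMT5 mice, 53.4, 46.2 and 21.4 CPM across the Eµ-PRMT5/TCL1 mice, with 27.6 CPM in the Eµ-TCL1 mouse (log2 fold change 1.11, SE 0.42, edgeR unadjusted p = 0.0206, adjusted p = 1.0). Themis2 (log2 fold change 0.67, SE 0.39) and the actin regulator Hcls1 (0.44, SE 0.32) had the next smallest p. The groups overlapped for Themis2 but not for Hcls1, which was higher in Eµ-PRMT5/TCL1 mice with no overlap, as were 1.35% of all tested genes. Of 19 inhibitors, 13 were above 0 with a median of 0.25, beside the same 40.6% and -0.09 over all tested genes. The smallest p among them were those of the phosphatase Ptpn6 (log2 fold change 0.79, SE 0.43), the ubiquitin ligase Cblb (0.69, SE 0.38), the inhibitory co-receptor Cd72 (0.77, SE 0.51) and the Csk-binding adaptor Pag1 (-0.78, SE 0.53), and 0 of 19 reached an unadjusted p under 0.05 in edgeR.

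The remaining comparisons set each replicated group against the 1 Eµ-TCL1 mouse. They ask whether this mouse lay outside the spread of the replicated groups, they cannot compare the genotypes, and both use the same Eµ-TCL1 library. In edgeR, 0 of 10 genes passed the adjusted threshold (0.0% of all tested genes) and 0 of 10 an unadjusted p under 0.05 in either. For Eµ-PRMT5 mice the unadjusted background was 1.96% higher and 4.82% lower, and for Eµ-PRMT5/TCL1 mice 1.75% and 4.33%.

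Against the Eµ-TCL1 mouse, 9 of 10 genes had a log2 fold change above 0 in Eµ-PRMT5 mice, Syk being the exception, where 51.9% of all tested genes were above 0 and 48.1% below. The median over the 10 genes was 0.73 against 0.04 over all tested genes. Other cells' markers were also above 0 in this comparison, with 13 of 13 neutrophil markers (median 1.98) and 6 of 6 erythroid markers (median 2.55), and their part in the members' values was not tested. Without TMM factors, scaled by library size only, these medians were 0.44 and -0.21 and again 9 of 10 genes were above 0. For Btk and Lyn the Eµ-TCL1 mouse was under the range of all 4, as for 17.9% of all tested genes, and for Syk it was over that range, as for 24.4%. For Lyn, 208 CPM in the Eµ-TCL1 mouse lay below the lowest Eµ-PRMT5 mouse at 267 CPM (log2 fold change 0.53, SE 0.48, edgeR adjusted p = 0.789), but with library size only Lyn no longer lay outside. For Btk the lowest Eµ-PRMT5 mouse was at 111 CPM against 95.4 CPM (log2 fold change 0.71, SE 0.50, edgeR adjusted p = 0.739), and for Syk the log2 fold change was -0.48 (SE 0.67, edgeR adjusted p = 0.868). The largest difference, that of Fyn at 1.60, had a standard error of 1.14. For Zap70 the log2 fold change was 1.24 (SE 1.11). Its level in the Eµ-TCL1 mouse, 7.3 CPM, lay within the Eµ-PRMT5 range of 5.48 to 34.5 CPM. The study named Zap70 as upregulated in Eµ-PRMT5 tumors, using more Eµ-TCL1 mice than the 1 here, which cannot test that difference.

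Eµ-PRMT5/TCL1 mice had a log2 fold change above 0 against the same mouse for 8 of 10 genes, the exceptions being Syk and Zap70, where 46.6% of all tested genes were above 0 and 53.4% below, and 6 of 10 with upper-quartile scaling or library size only, with Blnk and Prkcb then below 0. Neutrophil and erythroid markers had medians of 2.44 and 2.48 here. The median over the 10 genes was 0.60 against -0.07 over all tested genes, and 0.38 against -0.30 with library size only. For 5 of 10 genes (Btk, Lyn, Blk, Plcg2 and Pik3ap1) the Eµ-TCL1 mouse was under the range of all 3, as for 27.6% of all tested genes, and for Zap70 it was over that range, as for 39.0%. With library size only Plcg2 no longer lay outside. Lyn had the smallest p, with a log2 fold change of 0.88 (SE 0.50, edgeR adjusted p = 0.778), followed by Btk with 0.77 (SE 0.51, edgeR adjusted p = 0.788). Zap70 was 7.30 CPM in the Eµ-TCL1 mouse and at most 6.01 CPM in the Eµ-PRMT5/TCL1 mice (log2 fold change -1.10, SE 1.03), and no member had an edgeR adjusted p below 0.778. Blnk gave a log2 fold change of 0.00 (SE 0.64), and Prkcb of 0.06 (SE 0.82).

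Genes whose log2 levels followed a member most closely over the 8 mice were sought among 11307 genes of at least 5 CPM on average, as a description of these libraries. For Btk these were Puf60 (r = 0.959), Vav1 (r = 0.949) and Pcbd2 (r = 0.930), of which Vav1 is itself an activator of BCR signalling. Among those of Syk were Scml4 and F730311O21Rik (both r = 0.946), and for Lyn Jtb (r = 0.942), Capzb (r = 0.930) and Lpcat1 (r = 0.929). Blk was followed by Gimap7 (r = 0.958), Sp100 (r = 0.949) and Zfp951 (r = 0.944), and Fyn by Chordc1 (r = 0.972), Asb13 (r = 0.971) and Kdm6b (r = 0.965). Plcg2 was closest to the endosomal RNA sensor Tlr7 (r = 0.942), Mdh1 (r = 0.940) and Unc119 (r = 0.930). The likeness was lowest for Zap70, with Kif3a (r = 0.884), Slc5a6 (r = 0.877) and Ak7 (r = 0.875), none of them a T cell marker of the list. Blnk was closest to Sdf4 (r = 0.979), Opa1 (r = 0.978) and Mrpl13 (r = 0.975), Pik3ap1 to Sgta (r = 0.982), Ppm1g (r = 0.981) and Pold2 (r = 0.973), and Prkcb to Rfx7 (r = 0.975), Glg1 (r = 0.958) and Sp3os (r = 0.937).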

How the data were processed

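Splenic B cells of 8 mice were isolated with a pan-B cell kit, and bulk RNA-seq was made at low input after preamplification of cDNA, by the study's methods; the labels name a stranded mRNA kit instead. What the authors deposited is a matrix of raw counts, 1 column for each mouse, not normalized and not pooled. The submitters' processing notes name Subread, featureCounts, GRCm38 and DESeq2 1.20.0, and the annotation, the use of strand and the meaning of NA cells are not given in the sources used here. Of 24902 symbols, 14072 had a value in all 8 libraries and were kept, since NA (36919 cells) was not read as 0. The kept symbols held 95.2% to 99.5% of each library's counts.

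Samples were grouped by the transgene in their labels. Counts were scaled by TMM, filtered by group (13173 genes) and fitted in 1 model over all 3 groups with edgeR 4.0.16 in R 4.3.3 (quasi-likelihood test, Benjamini-Hochberg over all tested genes). The SE beside a log2 fold change was derived from the test, as its absolute value divided by the square root of the F statistic. Calls needed both a fold change over 4 and an adjusted p under 0.05. The biological coefficient of variation was 0.483 and comes from the replicated groups. Ratios and relations used log2(CPM + 1), exact permutation tests in Python 3.11.15 with scipy 1.17.1, and adjustment within the 3 ratios and the 2 relations. The code was tested on simulated data. Positions and exon lengths are from GENCODE vM21 (GRCm38), with lengths for 98.5% of tested genes, and promoter windows from RefSeq (GRCm38.p6). Nearest genes needed a mean of 5 CPM.

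The genes named were all members, their family relatives and T cell counterparts, and, of the receptor, activator and inhibitor lists, the up to 4 of each with the smallest p in Eµ-PRMT5/TCL1 against Eµ-PRMT5, and for each member the 3 genes with the highest Pearson r; Cd3d and the other single markers were singled out after their values were seen. Some genes of these lists are not reported here, though the counts and medians of their lists include them. The members and lists were chosen with earlier results of these data known. Replicates are mice, and mice with the same number are different animals: the correlation of their deviations from the group means was 0.0361, 0.129 and 0.187 for numbers 1 to 3, so the number was used as a block only in an alternative. The other alternatives were DESeq2 1.42.0, NA counted as 0, scaling by upper quartile or by library size alone, a minimum of 10 counts per library or no minimum, only the 2 groups compared, each mouse left out, and pseudocounts of 0.1 and 5 CPM. Counting error is small for most members but not for Zap70, with 11 counts in its lowest library, and no molecular identifiers are described for the reads.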

Additional observations from a re-analysis of the deposited data

How the results depend on the processing

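Of 450 log2 fold changes of the 10 genes under the alternatives, 426 kept their direction, 24 turned it and 0 passed the adjusted threshold with a fold change over 4. DESeq2 called 4, 18 and 16 genes of all tested in Eµ-PRMT5/TCL1 against Eµ-PRMT5, Eµ-PRMT5 against Eµ-TCL1 and Eµ-PRMT5/TCL1 against Eµ-TCL1, where edgeR and every other alternative called 0, and the cause was not tested. At an unadjusted p under 0.05, Eµ-PRMT5/TCL1 against Eµ-PRMT5 gave 126 higher and 160 lower genes, and with a mouse left out 77 to 424 and 66 to 368, the most without Eµ-PRMT5 mouse 3 (424 and 347) and mouse 4 (392 and 368). Zap70 stayed lower there under every alternative, from -3.04 to -1.67. Its DESeq2 adjusted p was 0.395.

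Apart from Prkcb against Eµ-PRMT5 (-0.69, SE 0.55), directions turned for differences smaller than their standard errors. In Eµ-PRMT5/TCL1 against Eµ-PRMT5, Blk was -0.18 with the replicate block and -0.15 in the same 6 mice with no block, and Pik3ap1 0.57 and 0.43. In Eµ-PRMT5/TCL1 against Eµ-TCL1, Syk was 0.01 with DESeq2, 0.22 with NA counted as 0 and 0.05 with only the 2 groups; Blnk was -0.09 and Prkcb -0.03 with upper-quartile scaling, and -0.22 and -0.17 with library size only. With each mouse left out in turn, the log2 fold changes against Eµ-PRMT5 ranged from -0.08 to 0.63 for Syk, -0.07 to 0.21 for Btk, -0.21 to 0.21 for Blk, -0.37 to 0.43 for Pik3ap1 and -0.94 to 0.12 for Prkcb, and those against Eµ-TCL1 from -0.56 to 0.15 for Syk, -0.13 to 0.17 for Blnk and -0.17 to 0.28 for Prkcb. The differences in log2 ratio then ranged from -2.92 to -1.49 for Zap70 to Syk, -0.49 to -0.13 for Blk to Lyn and -1.29 to -0.17 for Fyn to Lyn, and the log2 fold change of Fyn from -1.21 to -0.16 against Eµ-PRMT5. The correlation with T cell markers then ranged from -0.404 to 0.86 for Zap70 and from -0.139 to 0.696 for Fyn.

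The replicate block called 0 genes and gave 495 higher and 331 lower genes by unadjusted p, against 374 and 368 in the same 6 mice with no block. Zap70 was -1.67 with the block (edgeR unadjusted p = 0.0537) and -1.75 with no block (edgeR unadjusted p = 0.0313). Fyn was -1.01 with the block (edgeR unadjusted p = 0.0144) and -1.21 with no block (edgeR unadjusted p = 0.0541), beside -0.86 in the main fit (edgeR unadjusted p = 0.244). The block joins mice by number alone, and mice with the same number are different animals. Scaling by library size alone shifted the median of all genes from 0.04 to -0.21 and from -0.07 to -0.30 in the comparisons with the Eµ-TCL1 mouse. The levels of Zap70, 11 to 299 counts, limit its precision by counting error.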
